A study of Mus musculus with 6 samples.

Results

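The proteasome genes described here are the 47 genes of the deposited table whose symbols are Psm, a letter from a to g and a number, out of 17546 genes in all. These genes were chosen by name and not by any measured value, though earlier results of these data were known at that time. Low counts removed 1 of them, Psma8, so 46 of 13325 tested genes are proteasome genes. The libraries are bulk RNA-seq of group 2 innate lymphoid cells (ILC2s), lymphocytes that lack antigen receptors and release type 2 cytokines, sorted from lungs of BALB/c mice after 3 intranasal doses of 1 µg of recombinant IL-33. After isolation the cells of both groups were kept in IL-2 and IL-7, each at 10 ng/mL, and received for 24 h either 10 µM Yoda1, a small molecule that opens the mechanosensitive calcium channel Piezo1, or the solvent DMSO. Each group has 3 libraries, DMSO 1 to 3 and Yoda1 4 to 6, and the comparison asks how the ILC2 transcriptome differs when Piezo1 is opened chemically. The series' design text calls the control PBS where the sample labels say DMSO, and the labels are followed here. Whether the libraries within a group are separate mice or separate cultures is not stated in the labels. A p-value here therefore weighs a group difference against the spread of these libraries, and that spread may be technical. By their label numbers DMSO 2 and 3 share a number, as do Yoda1 4 and 5, and what the number stands for is not stated. The labels also end in a suffix, which is 0 for DMSO 1 and 2 and 45 to 48 for DMSO 3 and the 3 Yoda1 libraries, so it partly follows the groups; with the suffix (0 or not) as a term 3 genes of the whole table were called, against 199 without it.

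The proteasome is the protease that degrades ubiquitin-tagged proteins. Its barrel-shaped core particle is built from outer rings of alpha subunits (Psma genes), which gate entry, and inner rings of beta subunits (Psmb genes), of which Psmb5, Psmb6 and Psmb7 carry the cutting sites. A regulatory cap of ATPases (Psmc genes), which unfold and thread the substrate, and non-ATPase subunits (Psmd genes), which bind and strip ubiquitin, sits on the barrel. Lymphocytes and cells that have met interferon also make Psmb8, Psmb9 and Psmb10, which replace Psmb5, Psmb6 and Psmb7 in newly built barrels and give the immunoproteasome, known for making peptides for MHC class I. Psme genes encode activators that can dock in place of the cap, Psmf1 an inhibitor, and Psmg genes chaperones that assemble the core.

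Library totals ran from 14214048 to 31627519 counts, and the upper limit that a gene at 0 counts allows was 0.0949 CPM (counts scaled to a common library size) for DMSO 2, the deepest, and 0.211 CPM for DMSO 3, the shallowest, which covers counting error alone. CPM values below are scaled by TMM factors over the tested genes unless said otherwise. All 12 markers listed for ILC2s were in the table, among them Gata3 at 766 to 1042 CPM of all counts and Il1rl1, the IL-33 receptor, at 545 to 706, whereas Thy1 was near the floor at 0.115 to 2.89; 0 of the 12 rose and 2 fell, Icos and Il2ra, by 0.89 and 0.67 on the log2 scale (adjusted p = 0.00423 and 0.00707 in edgeR). At p under 0.05 before adjustment 3 were higher (Rora, Klrg1 and Il5) and 3 lower, against 7.39% and 7.11% of all tested genes. Of 6 epithelial markers 5 were in the table and summed to 86.9 to 391.7 CPM of all counts with DMSO and 49.99 to 70.2 with Yoda1. Epcam was at 48.8 to 70.1 CPM in every library. Scgb1a1 was at 301.7 and 293.3 CPM in DMSO 2 and DMSO 3, which share a label number, and at most 0.0585 CPM in the other libraries. The T cell list (3 of 5 in the table) summed to 33.7 to 36.6 CPM with DMSO and 19.3 to 29.1 with Yoda1, mostly Cd3g, with Cd3e at 2.67 CPM or less, and the macrophage and dendritic list (4 of 6) to 3.38 to 5.44 and 6.64 to 15.2. The part of these cells in the results below was not tested. In bulk RNA a lower level can come from fewer cells of a type or from less RNA per cell, which cannot be told apart.

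No proteasome gene passed the test in either direction. Of 13325 genes, 0.570% were called higher and 0.923% lower and 1.49% in either direction by an adjusted p under 0.05 (quasi-likelihood test of edgeR, adjusted by Benjamini-Hochberg over all tested genes, as are the other adjusted p given for single genes), and of the 46 proteasome genes 0 were. DESeq2 and limma voom also called 0 of the 46, where DESeq2 called 4.15% higher and 4.54% lower of the 9965 genes to which it gave an adjusted p. With p under 0.05 before adjustment, edgeR had 6 of the 46 higher and 0 lower (13.0% and 0%), against 7.39% and 7.11% of all genes; DESeq2 had 13 and 1 of the 46, against 8.92% and 7.84% of all genes in the same fit, and voom 6 and 1, against 8.71% and 8.33%. With upper-quartile factors edgeR had 0 and 3, against 5.52% and 8.80%. The log2 change of Yoda1 over DMSO was above 0 for 40 of the 46 genes under TMM scaling, against 51.0% of all genes, and for 36 under upper-quartile factors, against 45.4%. The median over the 46 was 0.19, beside 0.01 over all tested genes.

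**Figure D1:**
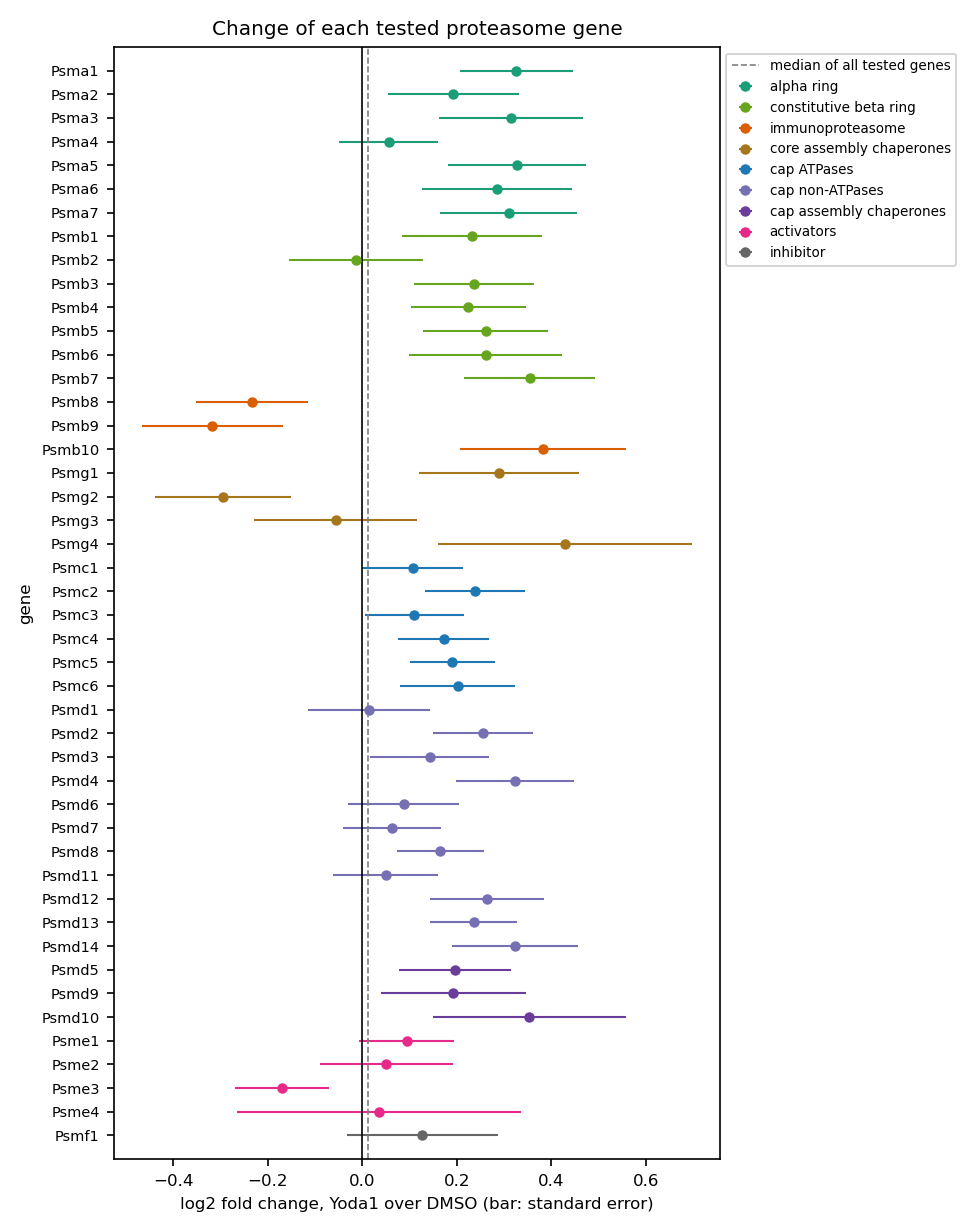
Log2 fold change of Yoda1 over DMSO (x axis) for the 46 tested proteasome genes (y axis), with the standard error as a bar and colours by class; the dashed line is the median of all tested genes. Most of the 46 points lie between 0 and 0.4, and Psmb8, Psmb9, Psmg2 and Psme3 are the clearest points to the left of 0.

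The libraries of the Yoda1 group were not alike. Counts in all 47 genes made up 1.27%, 1.28% and 1.24% of DMSO 1, 2 and 3 and 1.29%, 1.38% and 1.56% of Yoda1 4, 5 and 6. Yoda1 4 was thus close to the DMSO libraries and Yoda1 6 stood highest. Relative to the DMSO mean, the median log2 deviation over the 46 tested genes was 0.03, 0.17 and 0.29 in Yoda1 4, 5 and 6, and -0.02, 0.03 and -0.03 in DMSO 1, 2 and 3. In 31 of the 46 genes the highest of the 6 libraries was Yoda1 6, a count that was not made over all tested genes. The median log2 difference of Yoda1 6 from the mean of Yoda1 4 and 5 was 0.26 over the 46 and 0.01 over all tested genes. Without Yoda1 6 the median log2 change over the 46 was 0.12 instead of 0.19, beside -0.0033 over all genes tested in that fit. In that fit 38 of 46 changes were above 0, but the share of all genes above 0 was not counted.

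**Figure D2:**
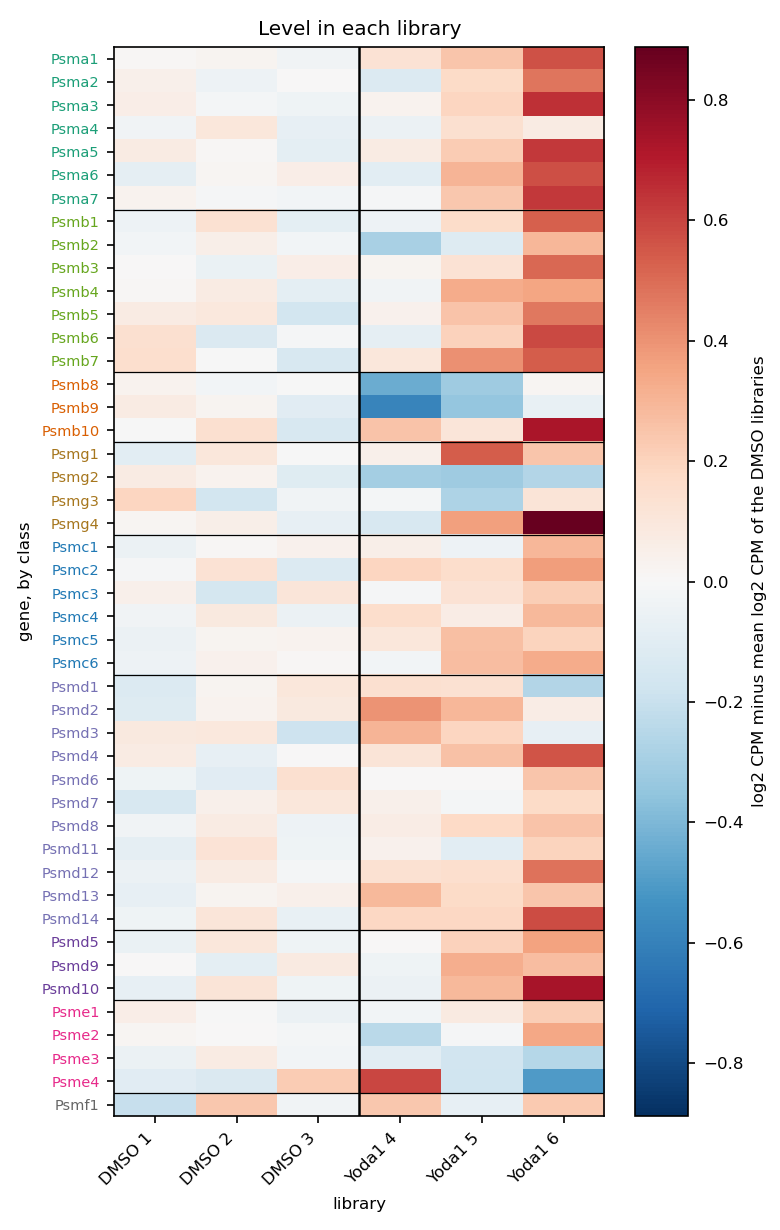
Log2 CPM of each of the 46 tested proteasome genes (rows, grouped by class) in each library (columns) minus the gene's mean over the DMSO libraries. The Yoda1 6 column is red for most core genes, while Psmb8 and Psmb9 are blue in Yoda1 4 and Yoda1 5.

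The difference between Yoda1 6 and the other Yoda1 libraries went with transcript length. Over the 46 genes, Spearman's rho between median transcript length and the log2 difference of Yoda1 6 from the mean of Yoda1 4 and 5 was -0.42, and over 13003 tested genes with a length it was -0.35; genes of a library share its preparation, so these are descriptions. Of 35 proteasome genes with transcripts under 2000 bases 34 were higher in Yoda1 6 than in that mean, with a median difference of 0.34, and of 11 longer ones 6 were, with a median of 0.13. The same split was not made over all tested genes. Psme4, with the longest transcripts of the 46 at 6491 bases, was -0.76 on the log2 scale in Yoda1 6 relative to Yoda1 4 and 5, and Psmg4, with the shortest at 514.5 bases, was 0.76. For the mean of Yoda1 4 and 5 against the DMSO mean the rho was 0.10 over the 46 and 0.18 over the 13003 genes. What part the length trend has in each gene's change was not tested gene by gene. With the trend removed from each library the median log2 change over the 46 was 0.18. That fit called 390 of 13003 genes in either direction. Of the 46 it called Psma1 alone, as higher (adjusted p = 0.0480 in edgeR with length offsets).

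**Figure D3:**
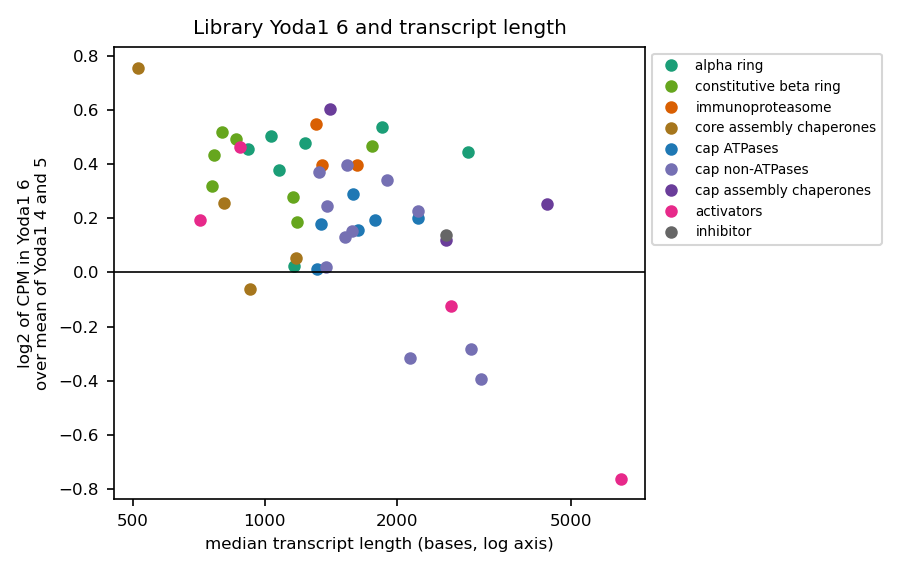
Median transcript length in bases (x axis, log scale) against the log2 of the CPM in Yoda1 6 over the mean of Yoda1 4 and 5 (y axis) for the 46 tested proteasome genes, coloured by class. Short transcripts lie mostly above 0 and the lowest point is Psme4.

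The alpha ring genes had mostly small positive differences. All 7 tested alpha genes had positive log2 changes under TMM, RLE and upper-quartile scaling and library totals, with a median of 0.31 and a range of 0.06 to 0.33, but none passed over all genes. The median was 0.12 without Yoda1 6 and 0.44 without Yoda1 4. Psma1, which had the smallest p of all proteasome genes, was at 412, 415 and 399 CPM for DMSO 1, 2 and 3, against 446, 486 and 606 CPM for Yoda1 4, 5 and 6. Every Yoda1 library was above every DMSO library for this gene, and its log2 change was 0.33 (SE 0.12, adjusted p = 0.249 in edgeR). Groups did not overlap upward for 10.6% of all tested genes and downward for 12.0%. Psma7 had the highest level per length of the alpha genes, 509.9 and 632 CPM per kb of median transcript length with DMSO and Yoda1, and was at 539, 525 and 519.7 CPM under DMSO against 525, 623 and 815 CPM under Yoda1. In Yoda1 4 this gene was within the DMSO range and only Yoda1 5 and 6 were above it. The log2 changes of Psma3, Psma5 and Psma6 were 0.31 (SE 0.15), 0.33 (SE 0.15) and 0.29 (SE 0.16), and those of Psma2 and Psma4 were 0.19 (SE 0.14) and 0.06 (SE 0.10). The pseudogene Psma5-ps was counted at 81.1 to 238 per library, so reads of Psma5 could be split with it. Psma8, an alpha subunit of the testis, had expected counts of 8, 23 and 3 with DMSO and 0, 3 and 13 with Yoda1, too few to test.

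The constitutive beta genes resembled the alpha genes in their library pattern. Among 7 tested beta genes 6 had positive changes, with a median of 0.24; the other, Psmb2, was at -0.01 (SE 0.14), a sign that turned under some settings. The median was 0.077 without Yoda1 6 and 0.36 without Yoda1 4. Groups overlapped for all 7. Psmb7, which carries the trypsin-like site, had the smallest p of the class and was at 193, 174 and 158 CPM for DMSO 1, 2 and 3, against 187, 231 and 254 CPM for Yoda1 4, 5 and 6. Yoda1 5 and 6 were above every DMSO library and Yoda1 4 was inside their range. Its log2 change was 0.35 (SE 0.14, adjusted p = 0.286 in edgeR). This gene lies across from Nek6 on the opposite strand, and because no source used here gives the strand setting of the counting, its value is uncertain; Nek6 was at 99.5 to 117 CPM of all counts with DMSO and 133 to 160.3 with Yoda1. Psmb5, which carries the chymotrypsin-like site, was at 282, 287 and 239.6 CPM under DMSO against 276, 321 and 372 CPM under Yoda1, a log2 change of 0.26 (SE 0.13). The gene of the caspase-like site, Psmb6, was at 465, 384 and 417 CPM under DMSO against 398, 486 and 633 CPM under Yoda1, a log2 change of 0.26 (SE 0.16). In both genes Yoda1 6 was the highest library and Yoda1 4 lay within the DMSO range. Psmb3, a structural subunit, had the highest level per length of all 46 genes, at 683 and 805 CPM per kb, and a log2 change of 0.24 (SE 0.13); Psmb1 and Psmb4, also without a cutting site, were at 0.23 (SE 0.15) and 0.22 (SE 0.12).

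The immunoproteasome genes did not move as a unit. None of the 3 passed, and their median log2 change of -0.23 was -0.38 without Yoda1 6 and -0.14 without Yoda1 4. Psmb8 and Psmb9 had lower means with Yoda1, whereas Psmb10 had a higher one. Psmb8, on chromosome 17 at 34197721 to 34201454 (GRCm38), was by level per length the most abundant of the 3, at 456 and 387 CPM per kb with DMSO and Yoda1. Its constitutive counterpart Psmb5 was at 354 and 425 CPM per kb. Which of the 2 stands higher per length rests on the median transcript lengths used. By counts Psmb8 was above Psmb5 in every library, by a ratio of 1.86 to 3.08. Psmb8 was at 757, 730.0 and 738 CPM for DMSO 1, 2 and 3, against 545, 596 and 751 CPM for Yoda1 4, 5 and 6. Yoda1 4 and 5 were below every DMSO library, but Yoda1 6 was not, so the groups overlapped. The log2 change of Psmb8 was -0.23 (SE 0.12, adjusted p = 0.411 in edgeR), and without Yoda1 6 it was -0.38 (SE 0.07, adjusted p = 0.0511 in edgeR).

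Psmb9, which lies in the same stretch of the genome on chromosome 17 at 34181987 to 34187764, had the same library pattern. It was at 150.3, 145 and 133 CPM for DMSO 1, 2 and 3, against 95.1, 112 and 136 CPM for Yoda1 4, 5 and 6. Here too only Yoda1 6 reached the DMSO range, and the log2 change was -0.32 (SE 0.15, adjusted p = 0.376 in edgeR); without Yoda1 6 it was -0.46 (SE 0.12, adjusted p = 0.122 in the same edgeR test). Per length Psmb9 stood at 106 and 84.8 CPM per kb, below its counterpart Psmb6 at 529 and 633 CPM per kb in either group. Psmb10, on chromosome 8 at 105935735 to 105938444, was at 106, 117 and 96.4 CPM for DMSO 1, 2 and 3, against 126, 114 and 176 CPM for Yoda1 4, 5 and 6. Yoda1 6 was its highest library and Yoda1 5 was inside the DMSO range. Its log2 change was 0.38 (SE 0.18, adjusted p = 0.362 in edgeR), and 0.18 without Yoda1 6. The antisense genes Gm20496 and Gm16156, which overlap Psmb8 and Psmb10, were counted at no more than 0.68 CPM of all counts in any library.

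**Figure D4:**
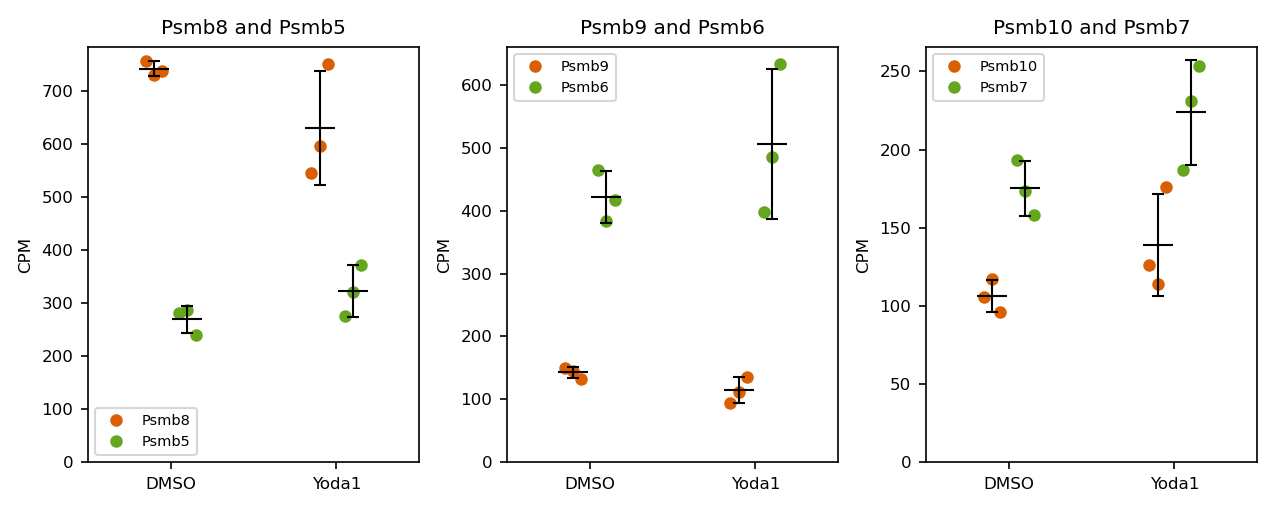
CPM (y axis, from 0) of each immunoproteasome gene (orange) and the constitutive gene it replaces (green) in the DMSO and Yoda1 libraries; points are libraries, and the black bar is the mean with its SD (n = 3). Psmb8 and Psmb9 have lower means with Yoda1 while Psmb5 and Psmb6 have higher ones.

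Within a library the exchange partners can be set against each other, so that a factor common to the whole library cancels. The lengths of the 2 genes do not cancel (1628 bases for Psmb8 and 760.5 for Psmb5, 1352 for Psmb9 and 798 for Psmb6, 1311 for Psmb10 and 1160 for Psmb7), so the size of a ratio is no ratio of molecules, and a trend with length between libraries stays in it. The count of Psmb8 over that of Psmb5 was 2.68, 2.54 and 3.08 for DMSO 1, 2 and 3, against 1.98, 1.86 and 2.02 for Yoda1 4, 5 and 6. Every Yoda1 library, Yoda1 6 included, was below every DMSO library, and the mean log2 ratio went from 1.46 ± 0.14 to 0.96 ± 0.0615 (SD, n = 3 each), a difference of -0.50 (exact two-sided permutation test over libraries, p = 0.10, Benjamini-Hochberg adjusted over 3 ratios 0.15). The ratio of Psmb9 to Psmb6 was 0.323, 0.379 and 0.319 for DMSO 1, 2 and 3, against 0.239, 0.232 and 0.216 for Yoda1 4, 5 and 6. These groups did not overlap either, and the mean log2 ratio differed by -0.57, with SDs of 0.14 and 0.0762 (n = 3 each, exact two-sided permutation p = 0.10, adjusted 0.15). With 3 libraries against 3 the smallest p this test can give is 0.10, so neither could pass at 0.05. The test treats the libraries as exchangeable and separate, which those with a shared label number may not be. The ratio of Psmb10 to Psmb7 was 0.549, 0.674 and 0.608 for DMSO 1, 2 and 3, against 0.675, 0.495 and 0.694 for Yoda1 4, 5 and 6, the groups overlapped, and the difference in mean log2 was 0.01 (exact two-sided permutation p = 0.80, adjusted 0.80). With the length trend removed in the fit, the log2 changes were -0.26 (SE 0.10) for Psmb8 and 0.31 (SE 0.08) for Psmb5. They were -0.33 (SE 0.11) for Psmb9 and 0.29 (SE 0.10) for Psmb6, and 0.37 (SE 0.14) for Psmb10 and 0.36 (SE 0.10) for Psmb7. None of these genes passed in that fit (adjusted p from 0.0870 for Psmb5 to 0.237 for Psmb10 in edgeR with length offsets).

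**Figure D5:**
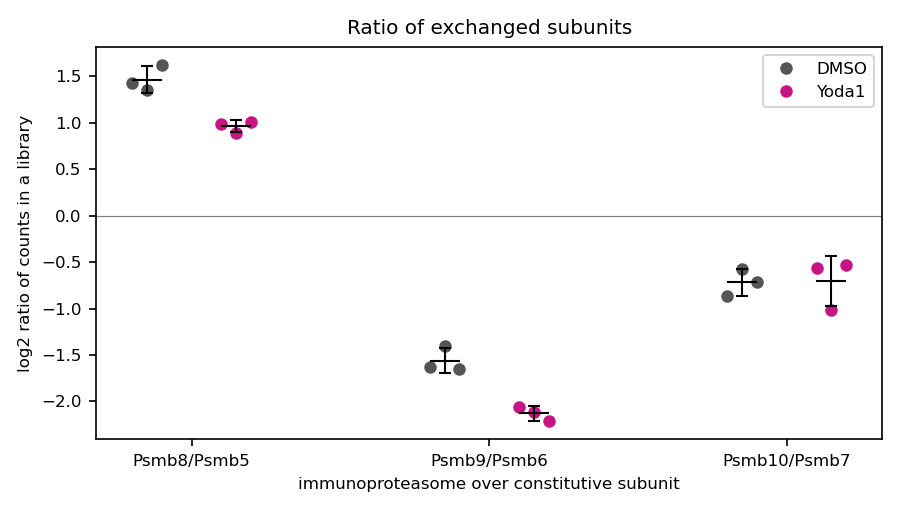
Log2 ratio of counts within a library (y axis) for the 3 exchanged pairs (x axis); points are libraries, grey for DMSO and magenta for Yoda1, and bars are the mean and SD (n = 3). The groups are apart for Psmb8/Psmb5 and Psmb9/Psmb6 and overlap for Psmb10/Psmb7.

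The choice of denominator was varied over the barrel. Divided by each of the 14 constitutive core genes in turn, Psmb8 gave ratios whose Yoda1 values were all below the DMSO values for 13, the exception being Psma4, and Psmb9 gave such ratios for 14 of 14. For Psmb10 the groups did not overlap for 1 of 14, with the Yoda1 values higher. Among the 91 ratios that the 14 constitutive genes form with each other, 17 had groups that did not overlap (18.7%). Ratios with the same numerator are not independent, and no test was made over them. Yoda1 6 was the highest library for 13 of the 14 constitutive genes, so the denominators share a library pattern and do not give 14 separate comparisons. Ratios between genes of the whole table were not counted, so the 18.7% is no background share for Psmb8 and Psmb9. The median difference in log2 ratio was -0.49 for Psmb8, -0.58 for Psmb9 and 0.12 for Psmb10.

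Psmb9 and Tap1, which encodes a chain of the peptide transporter of MHC class I loading, are transcribed away from each other from RefSeq starts at 34187330 and 34187556 on chromosome 17, with 225 bases between them. Tap1 was at 211, 195 and 229.6 CPM under DMSO against 189, 184 and 161 CPM under Yoda1. Its groups did not overlap, with Yoda1 lower, and the log2 change was -0.25 (SE 0.11, adjusted p = 0.358 in edgeR), which did not pass. In the GENCODE M21 annotation Psmb9 starts elsewhere than in RefSeq, and there Psmb9 and Tap1 overlap by 212 bases on opposite strands. A few reads of each could therefore be counted for the other. The sequences below are shown because these 4 genes form the exchanged pairs whose ratios separated the groups. They come from RefSeq promoters on GRCm38.p6, upstream of the start, and are written 5′ to 3′ on the gene's strand, with motif matches in capitals; for Psmb5 and Psmb6 the stretch is the part outside annotated exons, and for Psmb8 and Psmb9 it is 30 bases around the match.
Psmb5, chr14:54618023-54618245, minus strand: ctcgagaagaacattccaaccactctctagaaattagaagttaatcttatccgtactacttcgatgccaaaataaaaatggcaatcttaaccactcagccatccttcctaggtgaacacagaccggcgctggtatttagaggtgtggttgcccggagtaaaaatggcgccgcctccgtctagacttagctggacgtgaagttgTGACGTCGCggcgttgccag
Psmb6, chr11:70525107-70525356, plus strand: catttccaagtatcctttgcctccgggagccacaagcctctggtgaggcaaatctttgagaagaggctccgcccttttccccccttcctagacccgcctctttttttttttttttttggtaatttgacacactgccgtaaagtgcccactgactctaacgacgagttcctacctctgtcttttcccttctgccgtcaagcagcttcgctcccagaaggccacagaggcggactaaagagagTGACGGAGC
Psmb8, chr17:34198086-34198115, plus strand: agtcctccgctgTTCCCAGAAgatgccccc
Psmb9, chr17:34187331-34187360, minus strand: cctgcaccgcgcgcagccgctgATTGGaaa

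Motifs were searched on both strands in the 250 bases before the RefSeq start, in 42 windows of 39 proteasome genes and in 32851 windows in all. The antioxidant response element core, TGACNNNGC, which factors such as Nfe2l1 and Nfe2l2 bind, is the capital stretch in the constitutive pair Psmb5 and Psmb6. It was in 5 proteasome windows (11.9%) and in 10.2% of all windows. The gamma interferon activation motif TTCNNNGAA, the capitals in Psmb8, was in 2 proteasome windows (4.76%) and 7.02% of all. The CCAAT motif, whose reverse form is the capital stretch in Psmb9, was in 13 (31.0%) and 33.9%, and the interferon response motif, GAAA and GAAA with any 2 bases between, in 3 (7.14%) and 2.98%. The window of Psmb10 held none of these letters. No motif match overlapped another in the proteasome windows, and a match says nothing of whether a factor was bound.

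The chaperones that assemble the core, whose products help the alpha ring form, had differences in both directions, with a median of 0.12 that was -0.0080 without Yoda1 6. Psmg2 was at 60.4, 58.6 and 53.3 CPM for DMSO 1, 2 and 3, against 46.5, 46.05 and 47.98 CPM for Yoda1 4, 5 and 6. All Yoda1 libraries were below all DMSO libraries, with a narrow spread in the Yoda1 group, and the log2 change of -0.29 (SE 0.14, adjusted p = 0.395 in edgeR) did not pass. Psmg1, its partner in a heterodimer, was at 48.5, 55.2 and 51.4 CPM under DMSO against 53.2, 74.8 and 61.3 CPM under Yoda1, a log2 change of 0.29 (SE 0.17) with overlapping groups. Psmg3 and Psmg4, which form another pair, had log2 changes of -0.06 (SE 0.17) and 0.43 (SE 0.27). With DMSO Psmg3 had the highest level per length of the 4, at 67.7 CPM per kb against 55.8 for Psmg1, and with Yoda1 Psmg1 did, at 68.2 against 65.1. Pomp, the maturation factor that core particles need to join their beta rings, was at 311, 292 and 294 CPM under DMSO against 254, 291 and 337 CPM under Yoda1, a log2 change of -0.02 (SE 0.12) whose sign turned without DMSO 1 and without Yoda1 4.

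Of the 9 proteasome genes whose groups did not overlap, 6 were cap genes. All 17 tested cap genes had positive log2 changes under TMM, RLE and library-total scaling, with a median of 0.17, while Psmd1 and Psmd11 were negative with upper-quartile factors. None passed, and the groups did not overlap for 6 of the 17 (35.3%), all with Yoda1 higher (10.6% of all tested genes did so). Over the whole proteasome 7 of 46 genes separated upward (15.2%) and 2 downward (4.35%, against 12.0% of all tested genes). In Yoda1 4, where the constitutive core had a median deviation of -0.02, the cap was at 0.11, and in Yoda1 6 the core was at 0.53 and the cap at 0.25 on the log2 scale. The median thus spanned a smaller range over the Yoda1 libraries in the cap than in the core, a difference that was not tested.

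Of the 6 ATPase genes, Psmc2 had the smallest p and was at 319, 352 and 296 CPM for DMSO 1, 2 and 3, against 368, 358 and 415 CPM for Yoda1 4, 5 and 6. Its Yoda1 libraries were all above its DMSO libraries, with a log2 change of 0.24 (SE 0.11, adjusted p = 0.345 in edgeR). Psmc5 was at 309, 327 and 327 CPM under DMSO against 344, 386 and 369 CPM under Yoda1 and also separated the groups, by a log2 change of 0.19 (SE 0.09). Psmc4 had the highest level per length of the ATPases at 269 and 304 CPM per kb. Its log2 change of 0.17 (SE 0.10) was near those of Psmc6, 0.20 (SE 0.12), Psmc3, 0.11 (SE 0.11), and Psmc1, 0.11 (SE 0.11).

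Of the 11 non-ATPase genes the groups were apart for Psmd4, Psmd12, Psmd13 and Psmd14. Psmd4, which encodes a ubiquitin receptor, had both the smallest p and, at 234 and 292 CPM per kb, the highest level per length of the class. It was at 326, 296 and 311 CPM for DMSO 1, 2 and 3, against 336, 373 and 458 CPM for Yoda1 4, 5 and 6, a log2 change of 0.32 (SE 0.12, adjusted p = 0.28 in edgeR). Psmd14, the metalloprotease that removes ubiquitin chains from substrates, was at 182, 201 and 178 CPM under DMSO against 212, 212 and 279 CPM under Yoda1, a log2 change of 0.32 (SE 0.13). Yoda1 6 was the highest library for both. In Psmd13, a lid subunit, the Yoda1 libraries were closer together, at 240.4, 256 and 260.5 CPM under DMSO against 308, 284 and 299.9 CPM under Yoda1, and the log2 change was 0.24 (SE 0.09). Psmd12, another lid subunit, was at 207, 226 and 212 CPM under DMSO against 236, 238 and 300.1 CPM under Yoda1, a log2 change of 0.26 (SE 0.12).

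The genes of the large scaffold subunits, Psmd2 and Psmd1, had another library order. Psmd2 was at 547, 607 and 629 CPM for DMSO 1, 2 and 3, against 781, 727 and 620.1 CPM for Yoda1 4, 5 and 6. Here Yoda1 4 was highest and Yoda1 6 lay inside the DMSO range, and the log2 change was 0.25 (SE 0.11, adjusted p = 0.314 in edgeR); without Yoda1 6 it was 0.34 (SE 0.08, adjusted p = 0.0916 in the same edgeR test). Psmd1 was at 273, 302 and 319 CPM under DMSO against 328, 326 and 249 CPM under Yoda1, with its lowest value of the 6 in Yoda1 6, and a log2 change of 0.01 (SE 0.13). Psmd2 and Psmd1 have median transcript lengths of 2961 and 3112 bases, among the longest of the 46. Length alone did not set this order. Psmd5 and Psma2, at 4397 and 2911 bases, were higher in Yoda1 6 than in the mean of Yoda1 4 and 5, by 0.25 and 0.44 on the log2 scale. Of the 11 genes of 2000 bases or more, 6 were higher in Yoda1 6. Psmd3, a lid subunit of 2148 bases, had the same order, with 400.5 CPM in Yoda1 4 and 309 CPM in Yoda1 6, and a log2 change of 0.14 (SE 0.13). The remaining lid genes Psmd6, Psmd7, Psmd8 and Psmd11 had log2 changes of 0.09 (SE 0.12), 0.06 (SE 0.10), 0.16 (SE 0.09) and 0.05 (SE 0.11).

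The 3 chaperones of cap assembly, Psmd5, Psmd9 and Psmd10, had positive changes of 0.20 (SE 0.12), 0.19 (SE 0.15) and 0.35 (SE 0.20), and none passed. Their median of 0.20 was 0.12 without Yoda1 6 and 0.30 without Yoda1 4. Psmd10, also known as gankyrin, was at 55.2, 62.9 and 56.7 CPM under DMSO against 56.0, 71.0 and 96.4 CPM under Yoda1, so that Yoda1 4 stood inside the DMSO range and Yoda1 6 above the rest. Psmd5 had the highest level per length of the 3, at 48.4 and 55.5 CPM per kb.

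The activators had a median log2 change of 0.04 over 4 genes, a value that turned to -0.01 with upper-quartile factors. Psme1 and Psme2, whose products form the interferon-inducible activator ring, were at 281, 269 and 260.4 CPM under DMSO against 266, 285 and 314 CPM under Yoda1 for Psme1 and at 352, 349 and 345 CPM under DMSO against 296, 346 and 442 CPM under Yoda1 for Psme2. Their groups overlapped, and the log2 changes were 0.09 (SE 0.10) and 0.05 (SE 0.14). Psme2 had the highest level per length of the activators, at 397 and 411 CPM per kb, but the near-identical gene Psme2b, counted at 398 to 975 per library, makes its own value uncertain. Psme3, whose product activates the barrel in the nucleus, was at 208, 226 and 211 CPM for DMSO 1, 2 and 3, against 202, 191 and 180.2 CPM for Yoda1 4, 5 and 6. All Yoda1 values were below all DMSO values, by a log2 change of -0.17 (SE 0.10, adjusted p = 0.487 in edgeR) that did not pass. Psme4, a large single-chain activator, was at 21.3, 21.0 and 26.7 CPM under DMSO against 34.4, 20.2 and 16.1 CPM under Yoda1 with Yoda1 4 the highest and Yoda1 6 the lowest of the 6 libraries, and a log2 change of 0.04 (SE 0.30) that was -0.02 with upper-quartile factors. Psmf1, the inhibitor, was at 77.0, 105 and 86.8 CPM under DMSO against 105, 84.7 and 104 CPM under Yoda1, a log2 change of 0.13 (SE 0.16), and its groups overlapped.

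Genes that work with the proteasome were looked at in lists chosen by function. Of 7 tested partners in the cap and core (Adrm1, Ecpas, Pomp, Sem1, Txnl1, Uchl5 and Usp14) 0 passed in edgeR, and the median log2 change was 0.10. At p under 0.05 before adjustment 1 partner gene was higher and 0 lower, against 7.39% and 7.11% of all tested genes. That gene, named after its values were seen, was Usp14, a deubiquitinase of the cap, at 100.1, 85.0 and 95.7 CPM under DMSO against 128, 115 and 106 CPM under Yoda1, a log2 change of 0.31 (SE 0.13). Of 16 genes around Nfe2l1, the membrane-bound transcription factor that raises constitutive proteasome genes when proteasomes are short, 0 passed in edgeR, and the median was 0.20. With p under 0.05 before adjustment 2 were higher and 0 lower, against 7.39% and 7.11% of all tested genes. Those 2, also named after their values were seen, were Vcp and Zfand5, with log2 changes of 0.26 (SE 0.10) and 0.29 (SE 0.12). Nfe2l1 itself was at 70.3, 63.2 and 85.0 CPM under DMSO against 93.2, 90.4 and 79.8 CPM under Yoda1, a log2 change of 0.27 (SE 0.15), with overlapping groups. Of the ubiquitin and shuttle genes reported here, Sqstm1, which brings ubiquitinated cargo to autophagy, rose. It was at 798, 799 and 744 CPM under DMSO against 1829, 1879 and 1816 CPM under Yoda1, a log2 change of 1.24 (SE 0.07, adjusted p = 0.000183 in edgeR), and the call was kept without any 1 library but was lost with the libraries of a shared label number summed (adjusted p = 0.0546 in edgeR). Ubb, a polyubiquitin gene, was at 5350.2, 5538 and 5464 CPM under DMSO against 4625, 4986 and 6632 CPM under Yoda1, a log2 change of -0.01 (SE 0.12). Rps27a, which encodes ubiquitin fused to a ribosomal protein, and Uba1 and Uba6, which activate ubiquitin, did not pass.

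The list of antigen processing and interferon response, in which Psmb8 and Psmb9 are usually studied, had 14 tested genes, of which 2 rose and 0 fell, with a median of -0.05. The genes that rose were the MHC class I heavy chains H2-K1, at 1632, 1646 and 1653 CPM under DMSO against 1967, 2020.5 and 2072 CPM under Yoda1, and H2-D1, with log2 changes of 0.30 (SE 0.06) and 0.28 (SE 0.05) (adjusted p = 0.0493 and 0.032 in edgeR); reads of these paralogs could be split between them. Neither call was stable. Both were lost with upper-quartile factors, with the label suffix as a term, with libraries of a shared label number summed, and without DMSO 1, 2 or 3 or Yoda1 5, and that of H2-K1 also with RLE factors, with no filter and with the 10 CPM filter. Over these settings the log2 changes were 0.24 to 0.30 for H2-K1 and 0.22 to 0.29 for H2-D1, with adjusted p in edgeR of 0.0510 to 0.449 and 0.0595 to 0.431. Irf1, which drives immunoproteasome genes after interferon, was at 99.7, 120.0 and 107 CPM under DMSO against 119, 119.6 and 82.4 CPM under Yoda1, a log2 change of -0.03 (SE 0.17) that turned to 0.13 without Yoda1 6, and Nlrc5, the class I transactivator, was at 33.3, 43.4 and 45.9 CPM under DMSO against 45.1, 49.7 and 12.5 CPM under Yoda1. Yoda1 6 alone was low for Nlrc5, whose log2 change of -0.19 (SE 0.43) was 0.21 without that library.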

How the data were processed

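Expected counts (estimated reads per gene, 1 value per gene and library) were deposited by the authors for 6 libraries, and 57.1% to 66.5% of the values per library, zeros included, are whole within 0.001. Reads were placed on the mouse build mm10, per the submitters' processing notes; no source used here names the aligner, the counting method, the strand setting or the annotation. The counts were rounded to whole numbers, genes with low counts were removed with filterByExpr (minimum count 10, minimum total 15), and Yoda1 was compared with DMSO by the edgeR 4.0.16 quasi-likelihood test with TMM factors in R 4.3.3. Benjamini-Hochberg adjustment ran over all 13325 tested genes with a threshold of 0.05, and the script was tested on simulated data. A log2 change is that of the fitted group means.

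Ratios of subunits were taken per library on unrounded counts plus 0.5 and compared by exact permutation of the 6 libraries. Lengths are medians over GENCODE M21 transcripts, found for 97.6% of the tested genes. Alternatives were RLE and upper-quartile factors, library totals, DESeq2 1.42.0, limma 3.58.1 voom, no filter, a filter at 10 CPM in 3 libraries, the label suffix as a term, libraries with a shared label number summed, each library left out, and, chosen after seeing the data, removal of the length trend. No 2 libraries of a group agreed within counting noise (chi-square over its degrees of freedom 18.3 to 48.4), so none was treated as a library deposited more than once; this does not show that they are independent samples.

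The members and lists were chosen with earlier results of these data known. Genes named are the immunoproteasome subunits and their counterparts, the activators, the inhibitor, in each class those with the smallest p and the highest level per length, the genes not tested, those whose groups did not overlap, and, outside the family, list genes past the threshold with Nfe2l1, Pomp, Tap1, Irf1 and Nlrc5; some genes that the rule names are not reported here. The other family members are given by their log2 change. Values for non-overlapping members, Usp14, Vcp and Zfand5 were picked after seeing the data. Promoter sequences are those of RefSeq on GRCm38.p6.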

Additional observations from a re-analysis of the deposited data

How the results depend on the processing

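No proteasome gene was called higher or lower under any alternative except 1, removal of the length trend. Under it 1 gene (Psma1) was called higher, where 390 of 13003 genes were called in either direction. With the processing described above 199 of all genes were called, and the alternatives called from 1 (libraries with a shared label number summed) to 866 (DESeq2). The number of proteasome genes higher at an unadjusted p under 0.05 was 6 and ranged from 0 (upper-quartile factors, and without DMSO 3) to 22 (without Yoda1 4), so this count rests on which library is used. The number lower was 0 and reached 3 with upper-quartile factors, without Yoda1 6 and with the length trend removed. The share of all genes at that p was not counted without a library or with the length trend removed. Those counts therefore cannot be read as particular to the proteasome genes. Without any 1 library the difference in log2 ratio was -0.56 to -0.42 for Psmb8/Psmb5 and -0.61 to -0.49 for Psmb9/Psmb6, and -0.072 to 0.17 for Psmb10/Psmb7.

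Some log2 changes near 0 turned sign, none of them called. Psmb2 was at 0.011 with the label suffix as a term, 0.064 with libraries summed, 0.0081 with the length trend removed and -0.20 to 0.11 without any 1 library. For Psmd1 the values were -0.041 with upper-quartile factors, -0.022 with the 10 CPM filter, -0.083 with the suffix, -0.020 with libraries summed, -0.016 with the length trend removed and -0.053 to 0.13 without any 1 library. Psmd11 was at -0.0027 with upper-quartile factors and -0.030 to 0.12 without any 1 library, Psmd6 at -0.050 with the suffix, and Psmd7 at -0.033 with the suffix and -0.0058 to 0.10 without any 1 library. Psme2 was at -0.00015 with upper-quartile factors and -0.12 to 0.18 without any 1 library. Psme4 was at -0.019 with upper-quartile factors, -0.012 with voom, -0.00079 with the 10 CPM filter, -0.18 with the suffix, -0.038 with libraries summed and -0.34 to 0.25 without any 1 library. Without any 1 library Psmg3 ranged from -0.15 to 0.047, Pomp from -0.13 to 0.073, Irf1 from -0.11 to 0.13 and Nlrc5 from -0.50 to 0.21. Pomp was at 0.0028 with the suffix and 0.011 with libraries summed, and Irf1 at 0.0032 with the suffix. The cause was not tested.

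No paired analysis was possible because the DMSO libraries are numbered 1 to 3 and the Yoda1 libraries 4 to 6, so the groups share no number.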
